A study of Mus musculus with 25 samples.

Results

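Of the 19938 genes with 1 symbol on the array, 10 encode the central chaperones and stress sensors of the endoplasmic reticulum (ER) examined here: Hspa5, Hsp90b1, Calr, Canx, Pdia4, Pdia6, Herpud1, Xbp1, Atf6 and Ern1. They were chosen by name as a textbook group, with earlier results of these data known. Each was represented by a probe set annotated to that gene alone, the one with the highest mean over the 25 arrays. All 10 were measured. Pdia4 had a second, dim probe set with a mean log2 value of 3.51, which was not used further, and each other member had a single one.

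RNA was taken from primary cultures of neonatal mouse cardiac myocytes, with 1 Affymetrix Mouse Gene 1.0 ST array per culture. Wild type (WT) cultures came from nontransgenic mice, and transgenic (TG) cultures from mice in which the mlc2v promoter drives CHF1/Hey2, a Hairy-related transcriptional repressor, in the myocardium. There were 5 WT and 6 TG cultures kept without serum, and 7 WT and 7 TG cultures that received 20% fetal bovine serum during 24 hours as a hypertrophic stimulus. The study counts these as independent cultures. It reports that nearly all cells of each preparation were myocytes by staining for sarcomeric myosin. Litters are not named, so the p values reflect only how much the cultures differ. Hey2 itself followed the labels, with means of 7.81 in TG and 6.23 in WT cultures without serum, and of 8.71 and 6.89 with serum, on the log2 scale.

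Proteins that enter the secretory pathway fold in the ER with the help of the chaperones BiP (Hspa5) and GRP94 (Hsp90b1), the lectins calreticulin (Calr) and calnexin (Canx), and protein disulfide isomerases such as Pdia4 and Pdia6. When unfolded proteins accumulate, the membrane sensors Ire1 (Ern1), Atf6 and Perk start the unfolded protein response: Ire1 splices the Xbp1 transcript, Atf6 is cut to release a transcription factor, and both then raise the transcription of chaperone genes. In heart muscle this response is known to be engaged under hypertrophic and ischemic load. A whole-transcript array does not separate spliced from unspliced Xbp1, and it does not measure cleavage or phosphorylation of the sensors.

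The best known site through which cleaved Atf6 acts on chaperone genes is the ER stress element, whose letters are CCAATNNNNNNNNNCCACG, with 9 free bases between its fixed ends. Promoter windows of 300 bases, from 250 before the start site, were read from RefSeq on GRCm38.p6 for 9 of the 10 members, and none was read for Atf6. Searched on both strands, the element was found in 5 of these 9 windows, against 0.119% of 32851 windows of all genes. Because the element is known from chaperone genes and the members were chosen by name, this contrast is a description and not a test. A related, more compact form, called ERSE-II, was found in the Herpud1 window and in 0.0365% of all windows. The stretches that hold these letters are shown because they tell apart the members with and without the element, with the matches in capitals, which on some lines lie on the opposite strand.
Hspa5, chr2:34772010-34772058, plus strand: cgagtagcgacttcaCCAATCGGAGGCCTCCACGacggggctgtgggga
Hsp90b1, chr10:86705518-86705671, minus strand: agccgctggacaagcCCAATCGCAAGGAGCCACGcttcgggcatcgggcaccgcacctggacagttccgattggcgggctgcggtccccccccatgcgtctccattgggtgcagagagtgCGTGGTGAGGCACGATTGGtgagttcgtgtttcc
Calr, chr8:84847060-84847108, minus strand: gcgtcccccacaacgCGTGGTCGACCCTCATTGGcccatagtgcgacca
Canx, chr11:50325785-50325833, minus strand: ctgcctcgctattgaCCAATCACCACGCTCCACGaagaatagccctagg
Pdia6, chr12:17266476-17266524, plus strand: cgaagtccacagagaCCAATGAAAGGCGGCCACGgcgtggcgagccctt
Herpud1, chr8:94386362-94386402, plus strand: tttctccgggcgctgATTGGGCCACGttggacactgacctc

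The Hsp90b1 window held the element 2 times, once on each strand, and each other window with it held 1. Its first base lay 65 bases before the start site in Hspa5 and 98 in Pdia6. The letters TTGCATCA, a form of the site bound by Atf4 and C/EBP factors, were also present in the Herpud1 window and in 0.895% of all windows. None of these 3 sequences was found in the windows of Pdia4, Xbp1 and Ern1. Among 119 genes of the ER lists described below that have a window, 5 held the ER stress element, namely Creld2, Derl3, Dnajc3, Ero1b and Syvn1. These matches describe letters in a window, and binding was not measured.

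Whether CHF1/Hey2 changed these transcripts was asked within each serum set. No member passed the adjusted test in either set, with adjusted p in limma from 0.869 upward without serum and from 0.508 upward with serum. Over all 35557 probe sets, 0% passed without serum and 0.00844% with serum. The test thus missed the transgene Hey2 itself without serum. The absence of calls there does not show that the members were unchanged. At an unadjusted p under 0.05, 1 member differed without serum, where 5.64% of all probe sets did, and 0 members with serum, where 10.7% did. The median TG minus WT difference of the members was 0.03 without serum and -0.02 with serum on the log2 scale, beside -0.01 and -0.02 over all genes. These medians had no stable sign. Without serum the median was -0.028 without WT replicate 4 and -0.017 without TG replicate 5. With serum it was 0.047 without WT replicate 3, 0.019 without WT replicate 4, 0.00088 without TG replicate 7 and 0.026 with each array centered on its median.

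Among the chaperones, Hspa5 had log2 values of 10.98 to 11.45 (median 11.28) in 5 WT cultures and 11.14 to 11.60 (median 11.25) in 6 TG cultures without serum. With serum it had 11.47 to 12.22 (median 11.91) in 7 WT and 11.71 to 12.12 (median 11.80) in 7 TG cultures. The genotypes overlapped in both sets, and the differences were 0.04 ± 0.10 (SE) and -0.03 ± 0.11. Hsp90b1, the ER form of Hsp90, differed by 0.02 ± 0.07 and -0.04 ± 0.09. The 95% confidence intervals for both chaperones lay between -0.27 and 0.25 in these comparisons.

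Calreticulin, a calcium-binding lectin chaperone, was the member with an unadjusted p under 0.05. Without serum Calr had log2 values of 11.25, 11.21, 11.23, 11.10 and 11.28 in the WT cultures and 11.25 to 11.42 (median 11.30) in the TG cultures. All 6 TG cultures lay above the WT mean, but the ranges overlapped. The difference was 0.11 ± 0.05 on the log2 scale, a fold of 1.08. In limma, fitted across all probe sets, its unadjusted value of 0.0427 became an adjusted p of 0.869. With serum it was -0.04 ± 0.06, and the 2 differences could not be told apart in the interaction test (-0.15 ± 0.08, adjusted p = 1.00 in limma). Its membrane-bound relative Canx was -0.06 ± 0.04 without and -0.06 ± 0.05 with serum, with 1 TG culture of 6 and 1 of 7 above the WT mean.

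The disulfide isomerases Pdia4 and Pdia6 differed by 0.00 ± 0.10 and -0.06 ± 0.08 without serum and by -0.05 ± 0.16 and 0.02 ± 0.09 with serum. Herpud1, a membrane protein of ER-associated degradation and a sensitive marker of ER stress, differed by 0.11 ± 0.17 and 0.01 ± 0.12. Its cultures were widely spread without serum, with log2 values of 9.19 to 10.09 in WT and 9.39 to 10.20 in TG. The widest 95% intervals among these 3 genes were -0.27 to 0.49 for Herpud1 without serum and -0.39 to 0.29 for Pdia4 with serum, and that of Pdia6 without serum was -0.23 to 0.10.

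Of the sensors and their transcription factor, Xbp1 had the largest difference among the members in both sets. Without serum its log2 values were 8.72, 8.51, 8.57, 8.59 and 8.77 in WT cultures and 8.37 to 9.14 (median 8.97) in TG cultures. With serum the median was 9.10, and the highest value 9.22, in WT cultures, and TG cultures had 9.03 to 9.41 (median 9.22). The TG mean was above the WT mean by 0.24 ± 0.12 without serum and by 0.12 ± 0.06 with serum, with 5 of 6 and 6 of 7 TG cultures above the WT mean. The ranges overlapped in both sets, and the adjusted p values were 0.878 and 0.508 in limma.

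Atf6 differed by 0.12 ± 0.10 without and 0.11 ± 0.06 with serum, with 4 of 6 and 6 of 7 TG cultures above the WT mean (adjusted p = 0.906 and 0.518 in limma). Ern1, the Ire1 kinase and endoribonuclease, differed by -0.02 ± 0.08 and -0.01 ± 0.11. No member passed the interaction test of genotype with serum set (0 members with an unadjusted p under 0.05), and over all probe sets 0.00281% passed this interaction test in limma.

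**Figure D1:**
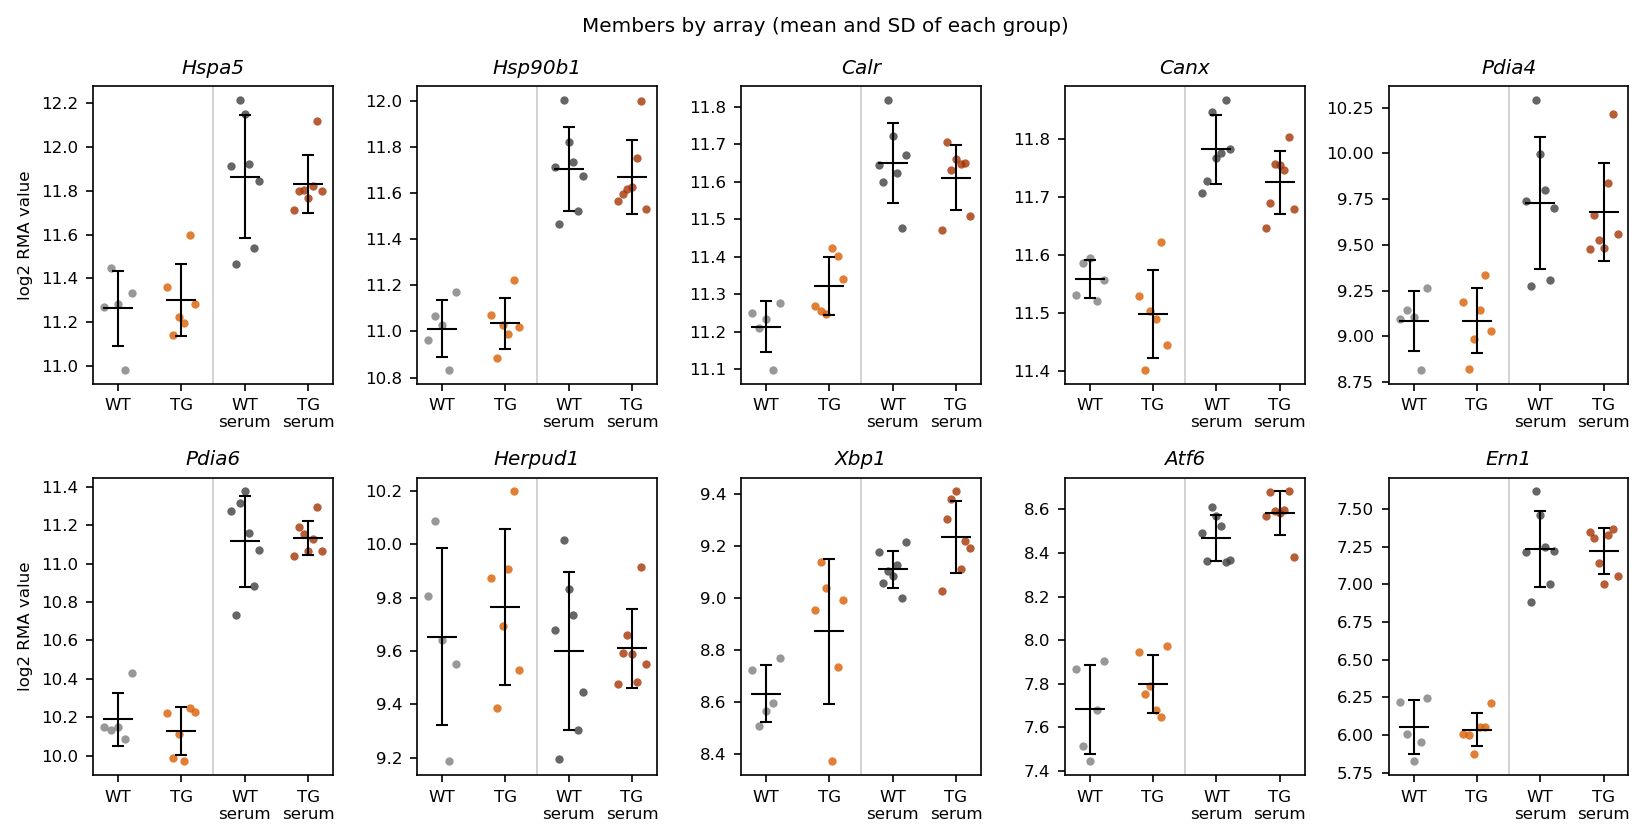
Log2 RMA value of each member (vertical axis, a separate scale for each gene) in every array of the 4 groups, with the group mean and SD as a black bar. WT and TG cultures overlap for all members in both sets, and the step between the 2 serum sets includes the difference in scale between these arrays.

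**Figure D2:**
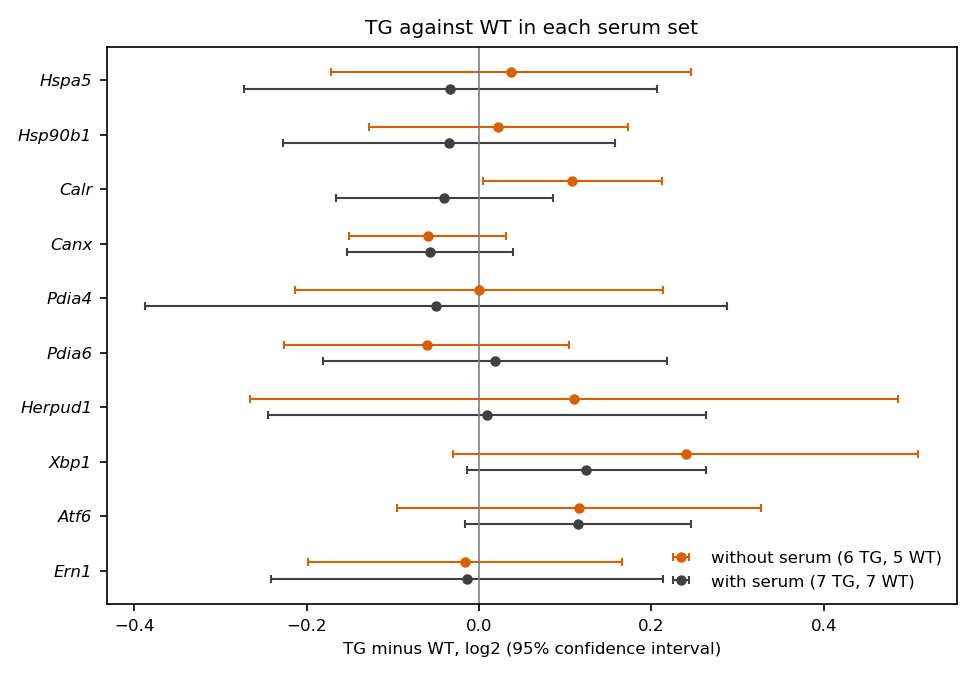
TG minus WT difference on the log2 scale (horizontal axis) for each member, without serum (orange) and with serum (dark gray), with 95% confidence intervals from limma. The interval of Calr without serum alone does not include 0, and its adjusted p is 0.869.

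The other genes of the ER protein folding pathway gave the same kind of result. The 7 lists with 139 measured genes of 147 listed held 0 genes past the adjusted test in limma in either set, and 8 and 11 genes with an unadjusted p under 0.05, beside 5.64% and 10.7% of all probe sets. The median TG minus WT difference over these 139 genes was 0.02 without and -0.02 with serum. In the PERK and ATF4 branch, which slows translation and induces amino acid genes under stress, Ddit4 differed by -0.38 (adjusted p = 0.188 in limma) and Sesn2 by -0.42 (0.310) with serum. In ER-associated degradation, the lectin Erlec1 differed by 0.13 without serum (adjusted p = 0.853 in limma) and 0.20 with serum (0.326).

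The effect of serum was read from the position of each gene within its own array, since the arrays with and without serum were on different scales. Array medians on the log2 scale were 5.21 to 5.36 in the set with serum and 4.99 to 5.09 in the other. The measure used is the percentile rank, from 0 for the dimmest to 100 for the brightest probe set. Serum and array set were the same split of the cultures, so the 2 cannot be told apart. In both genotypes Ern1, Atf6 and Pdia6 were ranked higher with serum, and Herpud1 lower, which makes 4 members of 10. Over all probe sets 58% passed in WT (28.8% higher and 29.2% lower) and 59.9% in TG (29.8% higher and 30.1% lower), and the 4 of 10 members lay below that share on this scale.

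Ern1 moved the most. Its percentile rank was 60.2 to 65.2 in WT cultures without serum and 67.9 to 75.7 in those with serum, and 61.0 to 64.9 and 69.1 to 72.8 in TG cultures. The groups with and without serum did not overlap. The rank rose by 8.90 ± 1.12 percentile points in WT (adjusted p = 5.1e-07 in limma) and by 8.44 ± 1.07 in TG (adjusted p = 4.6e-07). After quantile normalization of the 25 arrays together, the difference was 0.83 ± 0.10 and 0.79 ± 0.10 on the log2 scale.

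Atf6 rose from a mean percentile of 81.0 to 84.3 in WT and from 82.1 to 85.1 in TG, by 3.27 ± 0.74 and 3.06 ± 0.70 points (adjusted p = 0.000608 and 0.000669 in limma). All 7 cultures with serum lay above the mean without serum in each genotype, although the ranges overlapped. Pdia6 rose from 96.4 to 97.4 in WT and from 96.2 to 97.5 in TG, by 0.99 ± 0.28 and 1.28 ± 0.27 points (adjusted p = 0.00478 and 0.000282 in limma). Its TG groups did not overlap.

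Herpud1 fell by 2.57 ± 0.71 percentile points in WT and by 2.86 ± 0.67 points in TG (adjusted p = 0.00349 and 0.000863 in limma). It had 92.6 to 96.2 in WT cultures without serum and 89.7 to 94.1 in those with serum, and 93.4 to 96.3 and 91.4 to 93.5 in TG cultures. All 7 cultures with serum lay below the mean without serum in each genotype, and the ranges overlapped. On the jointly quantile-normalized log2 scale it fell by 0.57 ± 0.15 and by 0.66 ± 0.14.

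The other 6 members did not pass on this scale. Hspa5 differed by 0.11 ± 0.24 percentile points in WT and 0.08 ± 0.22 in TG, Hsp90b1 by 0.33 ± 0.22 and 0.30 ± 0.21, Pdia4 by 0.58 ± 0.75 and 0.49 ± 0.71, and the factor Xbp1 by -0.12 ± 0.62 and -0.70 ± 0.59. Calr differed by -0.09 ± 0.20 and -0.27 ± 0.19 points, and in TG its groups did not overlap. Canx differed by -0.34 ± 0.19 and -0.33 ± 0.18 points (adjusted p = 0.136 and 0.125 in limma), yet its groups did not overlap in either genotype. The arrays of a group differed from each other by a residual SD of 0.05 points, against a median of 2.03 over all probe sets. How many of all probe sets had groups that did not overlap was not counted. Lack of overlap in Canx, Calr, Ern1 or Pdia6 thus does not set these members apart. With normal scores of the rank, which spread out the top of the scale, Canx passed in both genotypes (difference in score -0.11 ± 0.01 in WT and -0.10 ± 0.01 in TG, adjusted p = 8.9e-08 and 1.4e-07 in limma). Hsp90b1 then passed as higher in both (adjusted p = 0.0207 and 0.0296) and Calr as lower in TG (adjusted p = 0.00163), so that 6 members passed in WT and 7 in TG, where 59.1% and 61.2% of all probe sets passed on that scale.

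**Figure D3:**
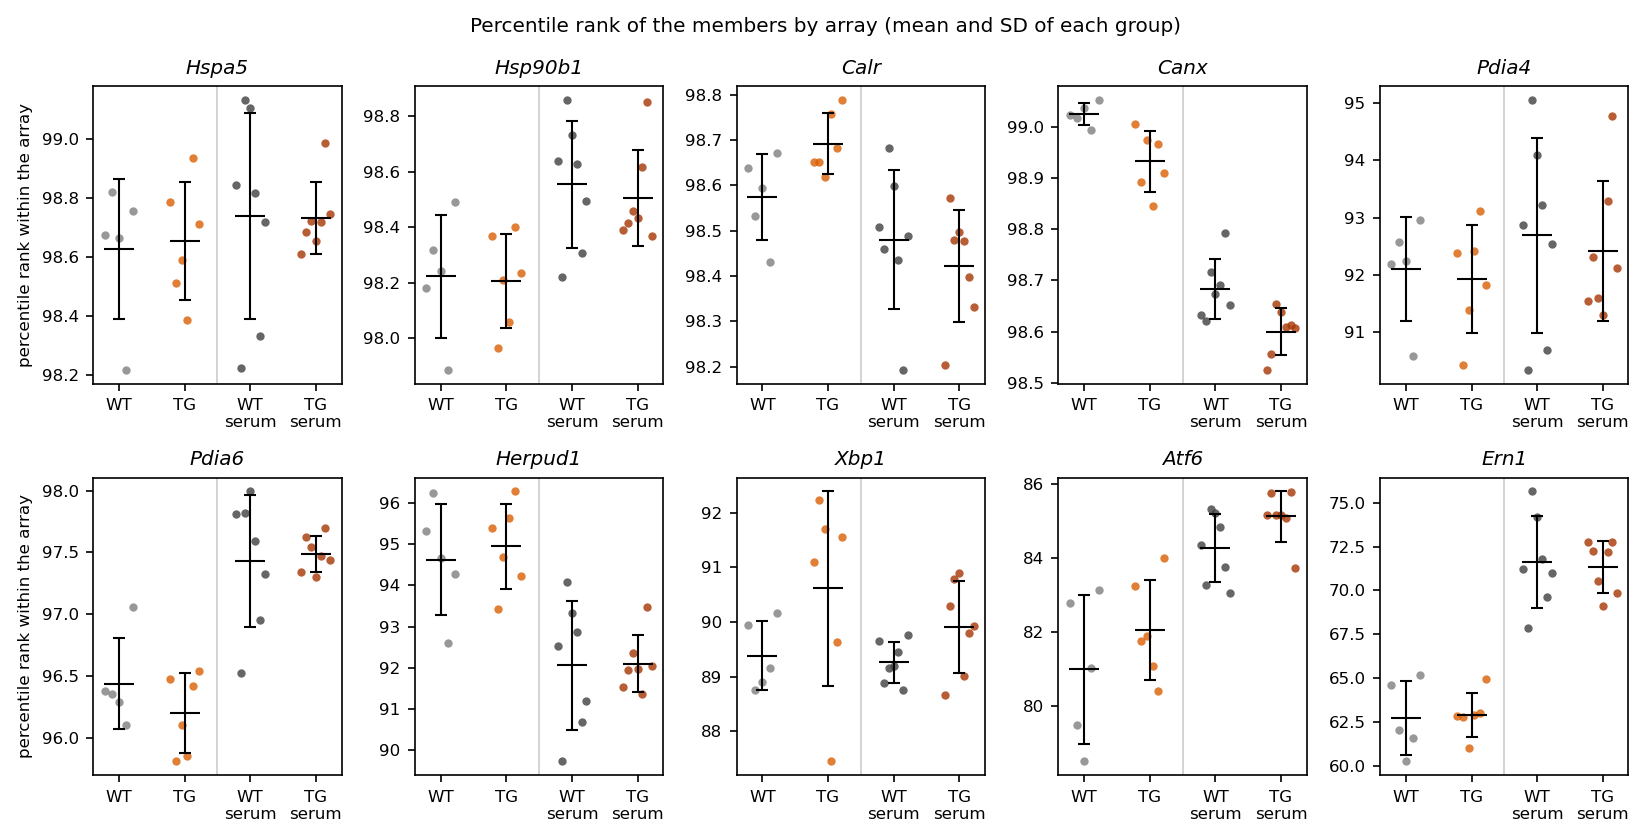
Percentile rank of each member within its array (vertical axis, a separate scale for each gene) in every array of the 4 groups, with the group mean and SD as a black bar. Ern1 lies near 63 in the groups without serum and near 71 in those with serum, Herpud1 is lower with serum, and Canx has groups that do not overlap within a range of less than 1 point.

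Across the wider pathway, 51 of 139 genes were ranked higher with serum and 22 lower in WT, and 52 and 26 in TG. The counts of the lists that follow stand beside 28.8% higher and 29.2% lower over all probe sets in WT, and 29.8% and 30.1% in TG. Genes of the translocon, through which new proteins enter the ER, were mostly higher (13 of 19 in WT and 12 in TG), with Sec61a2 up by 5.85 and 4.30 points. Of 29 other ER chaperones and oxidoreductases, 10 and 12 were higher and 2 lower, with the pancreatic isomerase Pdia2 up by 11.7 and 14.5 points and the testis calnexin homolog Clgn lower, with differences of -3.65 and -7.21. Both were dim, with mean log2 values of 4.08 and 3.91, and most false calls of the rank test on simulated data were at low levels. ER-associated degradation was split, with 6 genes higher and 9 lower of 22 in each genotype. There the ubiquitin ligase Syvn1 was lower, with differences of -4.69 and -5.66 points, and so was Derl3, with -9.63 and -11.9.

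In the PERK and ATF4 branch, 4 of 17 genes were lower in WT and 6 in TG, near the 29.2% and 30.1% of all probe sets, with 1 higher in each, and the median differences were -1.93 and -2.45 points. Ddit3, which encodes CHOP, had -4.38 and -4.19 points (adjusted p = 0.12 and 0.11 in limma), and the pseudokinase Trib3 -3.49 and -5.32 (adjusted p = 0.25 and 0.061). Among the transducers and regulators, the membrane-bound factor Creb3l2 was higher by 9.01 and 9.57 points. Of the glycoprotein folding cycle, 7 of 16 genes were higher in each genotype, and of the KDEL receptors and COPII coat 5 and 6 of 16. Cytosolic heat shock proteins, listed for comparison, were divided, with 3 of 15 higher in each genotype and 4 and 3 lower.

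Cultures of the same group differed from each other, and several members did so together. The deviation of each culture from its group mean was correlated between all 45 pairs of members in each set, with 90 tests adjusted together by permutation within groups. With serum 27 pairs passed, all with a positive correlation (median Pearson r = 0.71 over 45 pairs, n = 14 arrays), and without serum 11 pairs passed (median r = 0.413, n = 11). By Spearman rho 24 and 5 pairs passed. In 7 pairs the test was passed in both sets. Pairs of other genes were not tested, so these counts do not show a trait particular to the members. The strongest was Hsp90b1 with Pdia4, with r = 0.923 and Spearman rho = 0.836 without serum (permutation adjusted p = 0.00412 and 0.009) and r = 0.971 and rho = 0.930 with serum (permutation adjusted p = 0.00108 and 0.00198). Without the 2 cultures farthest from the median of Hsp90b1, r was 0.841 and 0.936.

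Hspa5 and Hsp90b1 moved together in the same way, with r = 0.896 and rho = 0.927 without serum (permutation adjusted p = 0.00965 and 0.0021) and r = 0.914 and rho = 0.939 with serum (permutation adjusted p = 0.00108 and 0.0009). Without the 2 farthest cultures r was 0.755 and 0.861. WT serum replicate 3 had the highest Hspa5, Hsp90b1, Pdia4 and Herpud1 of its group, and WT serum replicate 2 the lowest. TG serum replicate 6 was the highest of its group for the same 4 genes. Leaving out WT serum replicate 3 lowered the pairs that passed with serum from 27 to 17, and leaving out TG no serum replicate 5 lowered those without serum from 11 to 2.

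Members differed in how many others they passed with. Xbp1 passed with no other member in either set. Its r with Hspa5 was -0.13 without serum and 0.18 with serum (permutation adjusted p = 0.763 and 0.571; rho = -0.318 and 0.222, adjusted p = 0.505 and 0.538). Canx passed with 4 members without serum and with none with serum. Atf6 passed with 7 members and Ern1 with 6 with serum, and both with none without serum. The pair of Atf6 and Ern1 was among those with serum (r = 0.770, rho = 0.798, permutation adjusted p = 0.00823 and 0.00949) and had r = 0.730 and rho = 0.655 without serum (adjusted p = 0.0778 and 0.162). All pairs of Atf6 or Ern1 that passed with serum had a higher r in WT than in TG cultures. For Hspa5 with Ern1, r was 0.98 in WT and 0.38 in TG, and for Hspa5 with Atf6 0.91 and 0.42. Hspa5 with Canx went the other way with serum, with 0.09 in WT and 0.72 in TG. These differences between the genotypes were not tested.

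**Figure D4:**
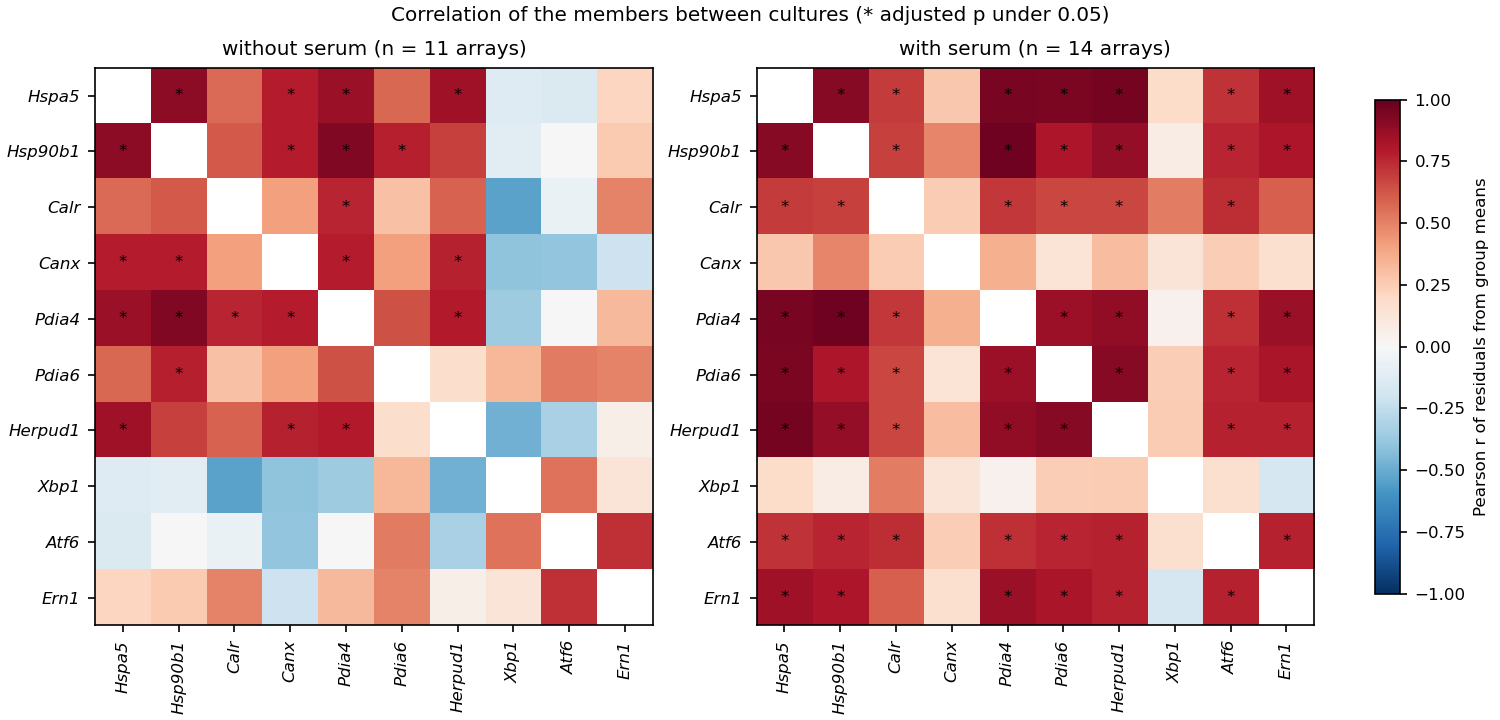
Pearson r between members (both axes) of the deviations of cultures from their group mean, without serum (left, 11 arrays) and with serum (right, 14 arrays), from blue at -1 to red at 1. Stars mark permutation adjusted p under 0.05, at 11 pairs on the left and 27 on the right, each drawn on both sides of the diagonal, and Xbp1 has none.

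Markers of some cell types moved with or against the members between cultures of a group. Each member was correlated with the mean of 6 marker lists in both sets (120 relations), of which 35 passed by r and 23 by rho, 25 and 18 of them with serum. Other genes were not correlated with these lists, so whether such relations are particular to the members was not tested. With serum, fibroblast markers passed positively with 8 members, endothelial markers positively with 7 and cardiac myocyte markers negatively with 6. Smooth muscle markers passed negatively with 4 members, and macrophage markers and epicardial and mesothelial markers with 0. Pdia6 with the 18 fibroblast markers had r = 0.951 and rho = 0.925 (permutation adjusted p = 0.0021 and 0.0036), and 0.973 without the 2 farthest cultures. Hsp90b1 with the 20 myocyte markers had r = -0.913 and rho = -0.815 (permutation adjusted p = 0.00264 and 0.0076), and -0.790 without the 2 farthest cultures.

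Without serum fewer relations passed, 4 with endothelial markers, 2 with fibroblast markers and 1 with each other list. Herpud1 with the myocyte markers had r = -0.826 and rho = -0.773 (permutation adjusted p = 0.0124 and 0.0337), and -0.795 without the 2 farthest cultures. Atf6 with the 16 macrophage markers had r = 0.837 and rho = 0.846 (permutation adjusted p = 0.0131 and 0.0269), and 0.835 without the 2 cultures farthest for Atf6. With serum the same relation had r = -0.01 and rho = -0.12 (permutation adjusted p = 0.98 and 0.80). Canx and Xbp1 passed with none of the lists with serum. In such mixed RNA, more cells of a type and more RNA per cell cannot be told apart.

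The marker lists were also compared between the groups. The median TG minus WT difference was 0.09 without and 0.30 with serum for myocyte markers, -0.08 and -0.05 for fibroblast markers, -0.05 and -0.19 for endothelial markers, -0.15 and 0.10 for macrophage markers, -0.18 and -0.16 for epicardial and mesothelial markers, and 0.03 and 0.06 for smooth muscle markers, and 0 genes of these lists passed. Of the 14 epicardial and mesothelial markers, 2 without and 5 with serum had an unadjusted p under 0.05, beside 5.64% and 10.7% of all probe sets. The median serum difference of endothelial markers was 3.72 percentile points in WT and 1.37 in TG, with 9 and 5 of 16 genes higher, and that of macrophage markers 2.43 and 5.78 points, with 5 and 7 of 16 higher. Fibroblast markers had -0.76 and -0.71 points, with 6 and 5 of 18 lower and 1 higher in each genotype. Over all probe sets 28.8% and 29.8% were higher and 29.2% and 30.1% lower. The counts of lower fibroblast markers, of higher endothelial markers in TG and of higher macrophage markers in WT lay near these shares. The count of higher fibroblast markers lay below them. The summed linear level of the 16 macrophage markers ranged from 747 to 4474 in cultures without serum, and from 1427 to 4026 in the others. The part of these cells in the differences of the members was not tested.

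**Figure D5:**
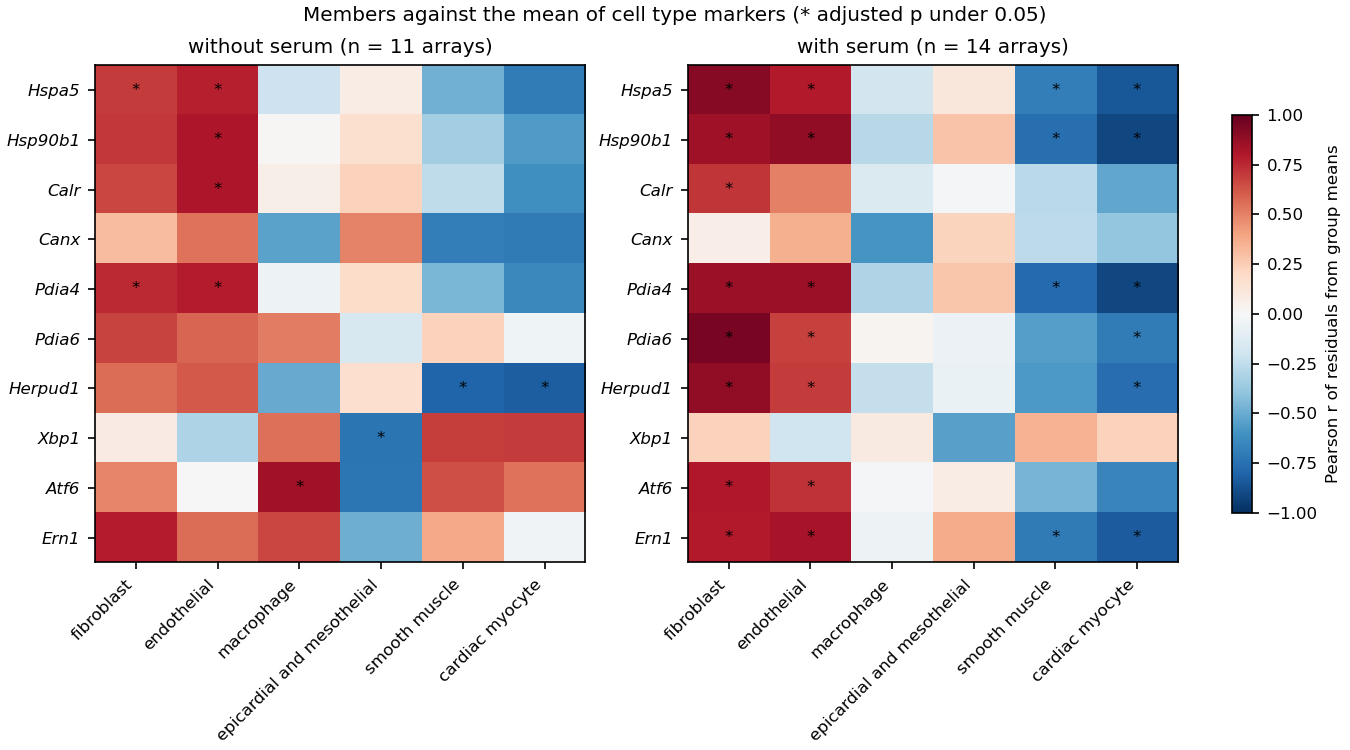
Pearson r between each member (vertical axis) and the mean of each list of cell type markers (horizontal axis) in the deviations of cultures from their group mean, without serum (left) and with serum (right), from blue at -1 to red at 1. Stars mark permutation adjusted p under 0.05, and with serum 8 members are marked for fibroblast markers and 6, all negative, for myocyte markers.

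The genes whose cultures deviated most like each member were sought among all genes by the mean of the r values of both sets, as a description. For Pdia4 these were Creld2 (0.949), Hsp90b1 (0.947) and Dnajc3 (0.944), all of them ER proteins that assist folding. Hsp90b1 was followed by Pdia4, the heme exporter Flvcr1 (0.936) and the disulfide isomerase Pdia3 (0.933). Hspa5 had the amino acid transporter Slc1a4 (0.939), the myosin cochaperone Unc45a (0.933) and the phosphatase Dusp1 (0.931). Herpud1 had its paralog Herpud2 (0.940), the glycine transporter Slc6a9 (0.929) and Trib3 (0.918).

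Pdia6 was followed by Mcfd2 (0.927), a cargo receptor subunit, Vasn (0.924) and Naa50 (0.922). Calr had Smn1 (0.844), Nfe2l2 (0.835) and Ccn1 (0.835), and Canx had Gdi2 (0.816), Fam210b (0.787) and the chaperonin subunit Cct2 (0.775). Xbp1 had the kinase Nuak1 (0.839), Usp6nl (0.826) and Far1 (0.821). Atf6 had Mpdz (0.915), the laminin chain Lamb1 (0.898) and Heatr5a (0.874), and Ern1 had Lrrk1 (0.913), Iqgap1 (0.909) and the receptor Lrp1 (0.903). Values were means over 11 arrays without and 14 with serum.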

How the data were processed

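Per the submitters, Affymetrix Expression Console 1.1 was used with Robust Multichip Analysis (RMA), and the deposited values are normalized log2 intensities of 35557 probe sets. All array columns were used (0 were set aside). Whether the 2 serum sets were normalized together is not given in the sources used here. Array intensities have no read depth, and the number of arrays limits the precision. Of the probe sets 21789 carried 1 symbol, 1621 several and 12147 were unnamed here. Symbols were updated through Entrez IDs to RefSeq, and 256 of 267 list entries matched a measured gene.

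Groups came from the labels. TG and WT were compared within each serum set, and serum by percentile rank within the array, with limma 3.58.1 (lmFit, eBayes) in R 4.3.3 over all probe sets, with Benjamini-Hochberg adjustment and calls at an adjusted p under 0.05. The ± values are standard errors from limma. Correlations used 100000 permutations within groups (two-sided; numpy 2.4.6), with a smallest p of 1e-05. Members, lists and tests were chosen with earlier results of these data known. Genes named were the members, per list those past the test or with the smallest p or the largest changes in rank, and per member the 3 genes most alike. Of these, some examples are given. The marker correlations and the alternatives for member pairs were chosen after seeing the data.

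The tests were tried on simulated data. There, with the unequal spreads of the 2 sets, the rank test made more false calls than its nominal rate, most of them among probe sets of low level, and with a common spread it did not. Alternatives were 1 fit over 25 arrays, quantile normalization again, weighting of arrays, median centering, a trended prior variance, removal of dim probe sets (below a mean log2 of 5), averaging over probe sets per gene, other scales of the rank, a replicate block and leaving out each array. Between cultures of the same label number, correlations of residuals were -0.45 to 0.15 (TG with WT, without serum) and -0.36 to 0.06 (with serum). They were -0.24 to 0.16 (serum with no serum, WT) and -0.23 to 0.19 (TG). A heat map legend of the study numbers the cultures without serum differently from the labels. These values therefore cannot show whether cultures were paired by preparation, and the replicate block rests on the label numbers.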

Additional observations from a re-analysis of the deposited data

Results flagged for a closer look

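Of 40 groups of member values, 4 held a culture far from the others by Dixon's gap, and chance gives about 1 in 20 groups. Hspa5 was highest in TG serum replicate 6, at 12.12, with the next culture at 11.82. Herpud1 was highest in the same culture, at 9.91, with the next at 9.66. Pdia6 was highest in WT no serum replicate 5, at 10.43, with the next at 10.15. Atf6 was lowest in TG serum replicate 7, at 8.38, with the next at 8.57. All values are on the log2 scale.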

How the results depend on the processing

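No member passed in the TG comparisons or the interaction under any alternative, and the same held with the culture number as a replicate block (0 members in each), while 4 members passed the serum rank test in each genotype with that block. Of 1350 member values under alternatives, 1241 kept their direction and side of the threshold, 17 newly passed, 2 no longer passed (Herpud1 on the deposited log2 scale) and 90 changed sign. The 6 sign changes on the deposited log2 scale were Calr (0.44 in WT and 0.29 in TG), Canx (0.22 and 0.23) and Xbp1 (0.48 and 0.36), which all passed there, and that scale holds the difference between the array sets. The other sign changes were among values near 0 that did not pass on either side. Without serum, Pdia4 had -0.036 with array weights, -0.033 with quantile normalization again and -0.013 as the mean of its probe sets, Hsp90b1 -0.00996 with quantile normalization again, and Ern1 0.015 with that and 0.014 with median centering. With serum, Pdia6 had -0.0047 and Herpud1 -0.031 with array weights, Herpud1 -0.00910 with quantile normalization again, and Hspa5, Hsp90b1, Calr and Ern1 had 0.016, 0.014, 0.0092 and 0.035 with median centering. In the interaction, Ern1 had -0.014 with array weights, -0.038 with quantile normalization again and -0.46 points on ranks, and Atf6 0.017 with median centering and 0.0060 with the replicate block. Dropping 1 array at a time gave, without serum, -0.067 to 0.053 for Pdia4, -0.073 to 0.033 for Ern1, -0.033 to 0.084 for Hspa5, -0.022 to 0.062 for Hsp90b1 and -0.0068 to 0.22 for Herpud1. With serum it gave -0.073 to 0.050 for Ern1, -0.045 to 0.062 for Pdia6, -0.059 to 0.078 for Herpud1, -0.100 to 0.026 for Hspa5, -0.090 to 0.015 for Hsp90b1 and -0.14 to 0.044 for Pdia4. In the interaction it gave -0.058 to 0.058 for Atf6, -0.057 to 0.066 for Ern1, -0.017 to 0.027 for Canx, -0.14 to 0.044 for Pdia4 and -0.21 to 0.016 for Herpud1, and for Xbp1 in the serum test in WT -0.28 to 0.074 points. In the serum test, 9 members passed in each genotype on the deposited log2 scale (76.8% of all probe sets in WT and 78.2% in TG), and in TG 7 passed with normal scores (61.2%) and 7 after joint quantile normalization (61.4%). Over all features, the 3 that passed with serum became 141 in 1 fit over 25 arrays, 5 with median centering, 5 without dim probe sets, 1 with genes' means, 1 with the replicate block and 1 to 3 without single arrays. The 1 that passed the interaction became 6 with array weights, 0 with quantile normalization again, 6 with median centering, 2 without dim probe sets, 0 with the replicate block, 0 on ranks and 0 to 4 without single arrays. Among the brightest probe sets of the 19938 genes, fewer features being tested, 11977 passed the serum test in WT and 12365 in TG. The 38 member pairs that passed became 29 with Spearman's rho and 28 to 42 without single arrays. Unless stated, the cause was not tested.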
